A study of Mus musculus with 11 samples.

Results

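The cohesin ring subunits SMC1 and SMC3 were compared along the genome of mouse embryonic fibroblasts (MEFs) that lack SA1. The members are the 47003 SMC1 peaks and the 34802 SMC3 peaks that chromatin immunoprecipitation followed by sequencing (ChIP-seq) gave in these cells, 81805 of the 163094 intervals in all 10 lists of the series. They were chosen by genotype and antibody alone. The labels list 11 samples of untreated MEFs from a C57BL/6 x 129 Sv background at stage E12.5, either wild type or SA1-null. Of these, 9 were immunoprecipitated with antibodies against SA1, SA2, SMC1 or SMC3, and 2 were input DNA pooled over both genotypes. In SA1-null cells the SMC1 antibody was used on 2 samples, which share 1 list, and the SMC3 antibody on 1 sample. Separate embryos or cultures behind the samples are not named in the labels, and the way SA1 was removed is not stated there. In wild-type cells each of the 2 antibodies was used on 1 sample. In SA1-null cells the SA1 antibody gave 177 intervals, against 26602 in wild-type cells.

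Cohesin is a ring that encircles DNA, holds sister chromatids together from replication to mitosis and extrudes chromatin loops in interphase. SMC1 and SMC3 are long coiled-coil ATPases that join at a hinge at one end and at their heads at the other, and a kleisin subunit closes the ring between the heads. SA1 and SA2, also called STAG1 and STAG2, bind the kleisin, and a somatic ring carries one or the other. SMC1 and SMC3 are each present in every complete ring, so the pair of antibodies reads the same complex through different proteins. In interphase cells many cohesin positions coincide with sites bound by the insulator protein CTCF, and others lie at active promoters and enhancers.

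The lists hold positions only, with no height, score or p-value, and sequencing depth is unknown. An SMC1 peak was called paired when an SMC3 peak overlapped it by at least 1 bp, and the reverse for SMC3. There was 1 list per antibody and genotype, so the spread between replicates is unknown here and lists were compared without a test. Shares are given with 95% Wilson intervals, which reflect only the number of peaks counted. Peaks are not replicates of a condition. All SMC1 and SMC3 lists were called against the same input library, per the names of the lists. Of the SMC1 peaks, 30 (0.0638%) overlapped a background interval, meaning one from either input list or from the SA1 list of SA1-null cells, and of the SMC3 peaks, 21 (0.0603%) did. Without these peaks the shares of paired peaks were 66.6% for SMC1 and 88.8% for SMC3.

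Most SMC3 peaks of SA1-null cells lay at SMC1 peaks, whereas SMC1 peaks without SMC3 made up a larger part of their list. Of the 34802 SMC3 peaks, 30899 overlapped an SMC1 peak (88.8%, interval 88.4 to 89.1%). Of the 47003 SMC1 peaks, 31301 overlapped an SMC3 peak (66.6%, interval 66.2 to 67.0%). These 2 shares are the background against which every subset below is read. Joined wherever they overlapped, the peaks of both lists formed 50291 positions. Both subunits had a peak at 30686 of these (61.0%, interval 60.6 to 61.4%), SMC1 alone at 15702 (31.2%) and SMC3 alone at 3903 (7.76%). With depth unknown, an unpaired peak does not show that the other subunit was absent. Both lists carry a stated false discovery rate of 10% in their names.

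In base pairs the lists were closer to each other than in peak number. SMC1 peaks covered 26.8 Mb and SMC3 peaks 23.7 Mb, and 17.5 Mb were covered by both. This common part was 65.3% of the SMC1 length, 73.9% of the SMC3 length and 53.1% of the 33.0 Mb covered by either. SMC1 peaks alone covered 9.30 Mb and SMC3 peaks alone 6.18 Mb.

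Pairing was almost always one peak to one peak. Of the paired SMC1 peaks, 31091 overlapped a single SMC3 peak, 207 overlapped 2 and 3 overlapped 3. Of the paired SMC3 peaks, 30307 overlapped a single SMC1 peak and 592 overlapped 2 or more. One-to-one pairs numbered 29980. Their centres were 46 bp apart in the median, 82.7% had centres within 100 bp of each other, and the shorter peak lay wholly within the longer in 56.8%. Libraries were cut from a gel at 100 to 200 bp, per the labels' protocols, so the median distance between centres was below the shortest fragment. The overlap was 536 bp in the median and was under 100 bp in 39 pairs. At the edge of the pairing rule, 117 of all 31514 overlaps were shorter than 50 bp, while 86 unpaired SMC1 peaks and 29 unpaired SMC3 peaks had a peak of the other subunit less than 50 bp away.

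SMC3 peaks were wider than the SMC1 peaks at the same positions. Over all peaks the median width was 652 bp for SMC3 (10th to 90th percentile 453 to 902 bp) and 535 bp for SMC1 (349 to 817 bp). Within the 29980 one-to-one pairs the medians were 665 bp for SMC3 and 577 bp for SMC1. The SMC3 peak was the wider one in 21697 pairs (72.4%, interval 71.9 to 72.9%), the SMC1 peak in 8209, and 74 were equal. The median difference was 81 bp, with 25th and 75th percentiles of -11 and 170 bp. The extension of SMC3 beyond SMC1 was 40 bp in the median on either side. SMC1 lay wholly inside SMC3 in 46.6% of pairs and SMC3 wholly inside SMC1 in 10.2%. On every one of the 20 chromosomes the median difference favoured SMC3, by 68 to 93 bp, and SMC3 was the wider in 68.0 to 80.1% of pairs. The widths of the subunits went together across pairs (Spearman's rho 0.611 over 29980 pairs, a description, since both lists share the genome and the input).

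In wild-type cells the order of the widths was the reverse. There the median difference in 14466 one-to-one pairs was -49 bp, SMC3 minus SMC1, and SMC3 was the wider in 33.3% of pairs (interval 32.5 to 34.0%). The same could be followed at 13870 positions that had exactly 1 peak in each of the 4 SMC lists. At these, SMC1 peaks had a median width of 613 bp in SA1-null and 619 bp in wild-type cells, and the SA1-null peak was the wider at 50.1% of positions. SMC3 peaks had a median width of 710 bp in SA1-null and 570 bp in wild-type cells, and the SA1-null peak was the wider at 87.3%. At these positions the SMC3 widths differed between the genotypes by 139 bp in the median and the SMC1 widths by 1 bp. Each of these lists came from 1 library except the SA1-null SMC1 list, and the difference between genotypes was not tested.

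**Figure D1:**
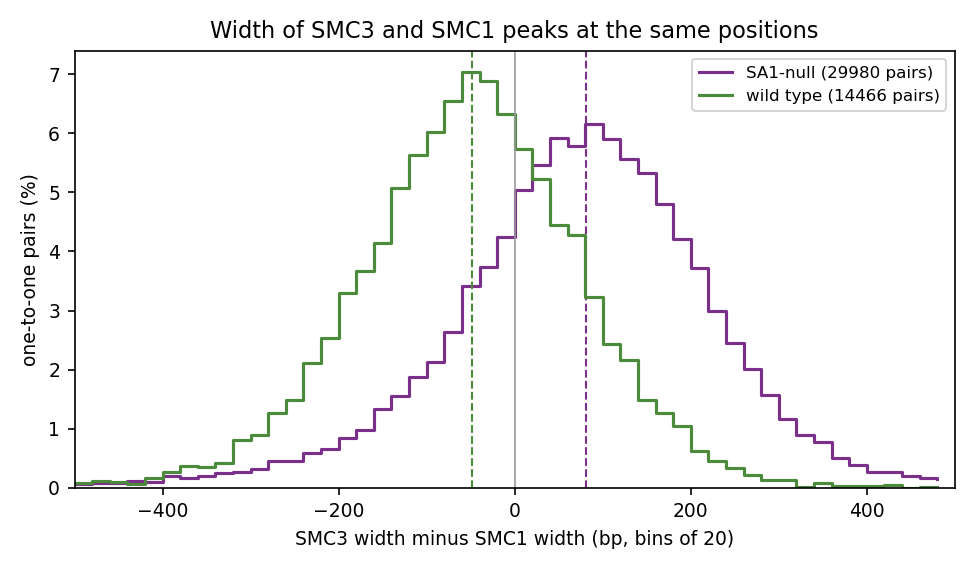
Width of the SMC3 peak minus width of the SMC1 peak (bp, horizontal axis, bins of 20 bp) against the share of one-to-one pairs (percent, vertical axis), for SA1-null cells (29980 pairs) and wild-type cells (14466 pairs). Dashed lines mark the medians, 81 bp in SA1-null and -49 bp in wild-type cells, on opposite sides of 0.

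The excess width of SMC3 was present at every kind of position examined and was larger at positions with peaks in other lists. At the 18922 pairs with a wild-type SA1 peak the median difference was 90 bp and SMC3 was the wider in 76.1% (interval 75.5 to 76.7%). At the 11058 pairs without one the difference was 62 bp and the share 65.9% (interval 65.0 to 66.8%). Pairs with an SA2 peak of SA1-null cells gave 92 bp and 76.9%. The 13984 pairs with wild-type SMC1 and SMC3 peaks gave 91 bp and 76.8%. These sets share many positions. Of the 21859 paired SMC1 peaks with a wild-type SMC peak, 17028 also had a wild-type SA1 peak. The values therefore do not separate SA1 from the other lists. The 6487 pairs with no peak in any of the other 5 immunoprecipitation lists gave 56 bp and 64.4% (interval 63.2 to 65.5%). Centres also lay closer at positions found in other lists. The median distance was 41.5 bp at pairs with a wild-type SA1 peak, 40 bp with an SA2 peak of SA1-null cells and 41.5 bp with wild-type SMC1 and SMC3 peaks. It was 54.5 bp at pairs without a wild-type SA1 peak and 58.5 bp at pairs found in no other list.

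Wide peaks were paired more often than narrow ones in both lists. Among the narrowest 10% of SMC1 peaks (169 to 349 bp) 34.2% had an SMC3 peak (interval 32.8 to 35.6%), and among the widest 10% (817 to 5076 bp) 86.8% did (interval 85.8 to 87.7%). For SMC3 the share was 66.7% (interval 65.1 to 68.3%) in the narrowest 10% (217 to 453 bp) and 96.6% (interval 96.0 to 97.2%) in the widest 10% (902 to 8986 bp). From the seventh of 10 width classes on the SMC3 share lay between 95.7 and 96.8%. At equal width in base pairs the shares still differed between the lists. The SMC1 list was longer (47003 peaks from 2 samples, against 34802 from 1). In nearly one-to-one pairs, the longer list has the lower share over all its peaks. Equal widths also take unlike parts of the lists, since SMC3 peaks were the wider at the same positions. Whether the subunits differ beyond this was not tested. Of peaks over 600 and up to 800 bp, 82.2% of 11554 SMC1 peaks and 94.0% of 15649 SMC3 peaks were paired. Of peaks over 300 and up to 400 bp, 38.2% of 7542 SMC1 and 64.4% of 1392 SMC3 peaks were. A wider peak has more room for a partner, and the part of this in the relation was not tested. Unpaired peaks were narrow, with a median of 444 bp for SMC1 (paired 578 bp) and 521 bp for SMC3 (paired 667 bp).

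**Figure D2:**
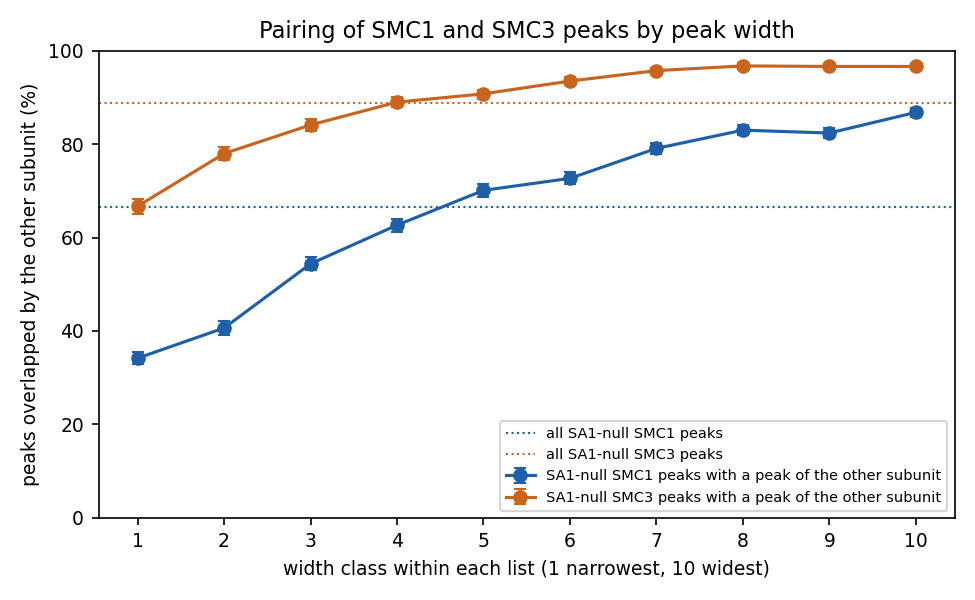
Share of SA1-null SMC1 and SMC3 peaks overlapped by a peak of the other subunit (percent, vertical axis) in 10 classes of equal number by width within each list (horizontal axis). Bars are 95% Wilson intervals and dotted lines the shares over the whole lists, 66.6% for SMC1 and 88.8% for SMC3. The share is 34.2% in the narrowest and 86.8% in the widest SMC1 class, and 66.7% and 96.6% for SMC3.

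Paired peaks lay at wild-type SA1 positions far more often than unpaired peaks. SA1 is absent from the cells in which the SMC peaks were called, so the wild-type SA1 list, called from another library and against the other input, serves as the record of SA1 positions. Of the paired SMC1 peaks 62.2% (interval 61.7 to 62.7%) overlapped a wild-type SA1 peak, and of the unpaired ones 12.1% (interval 11.6 to 12.6%). For SMC3 the shares were 62.7% (interval 62.2 to 63.2%) and 16.1% (interval 14.9 to 17.2%). Over the whole lists 45.5% of SMC1 and 57.5% of SMC3 peaks overlapped a wild-type SA1 peak. With the SMC1 list reduced to the length of the SMC3 list by width, the share among unpaired SMC3 peaks was 37.9%. That cut removed narrow SMC1 peaks and counted the SMC3 peaks that lost them as unpaired, so 37.9% and 16.1% describe different sets of peaks. The gap held in each of the 10 width classes. For SMC1, 48.8 to 72.4% of paired and 5.07 to 15.6% of unpaired peaks had a wild-type SA1 peak. For SMC3 the ranges were 48.6 to 76.8% and 8.85 to 18.7%. Among paired peaks the share was highest in the eighth width class, at 72.4% for SMC1 and 76.8% for SMC3, and it was 48.8% and 51.6% in the widest class. Each of the other immunoprecipitation lists likewise met paired peaks more often than unpaired ones. The wild-type SMC1 list met 67.9% of paired and 7.76% of unpaired SMC1 peaks, and 68.3% and 11.1% of SMC3 peaks.

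SA2, the remaining partner of the ring in these cells, was rarely found at unpaired peaks. An SA2 peak of SA1-null cells was present at 5475 paired SMC1 peaks (17.5%, interval 17.1 to 17.9%) and at 129 unpaired ones (0.822%, interval 0.692 to 0.975%). For SMC3 the numbers were 5462 paired (17.7%) and 43 unpaired peaks (1.10%, interval 0.819 to 1.48%). Read the other way, 97.7% of the 5604 SMC1 peaks with SA2 were paired (interval 97.3 to 98.1%), and 99.2% of the 5505 SMC3 peaks with SA2, against 66.6% and 88.8% over the whole lists. SA2 without a wild-type SA1 peak was found at 73 SMC1 peaks and 63 SMC3 peaks. Most peaks of either subunit had no SA2 peak, and the SA2 list held 6352 peaks from a library of unknown depth.

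**Figure D3:**
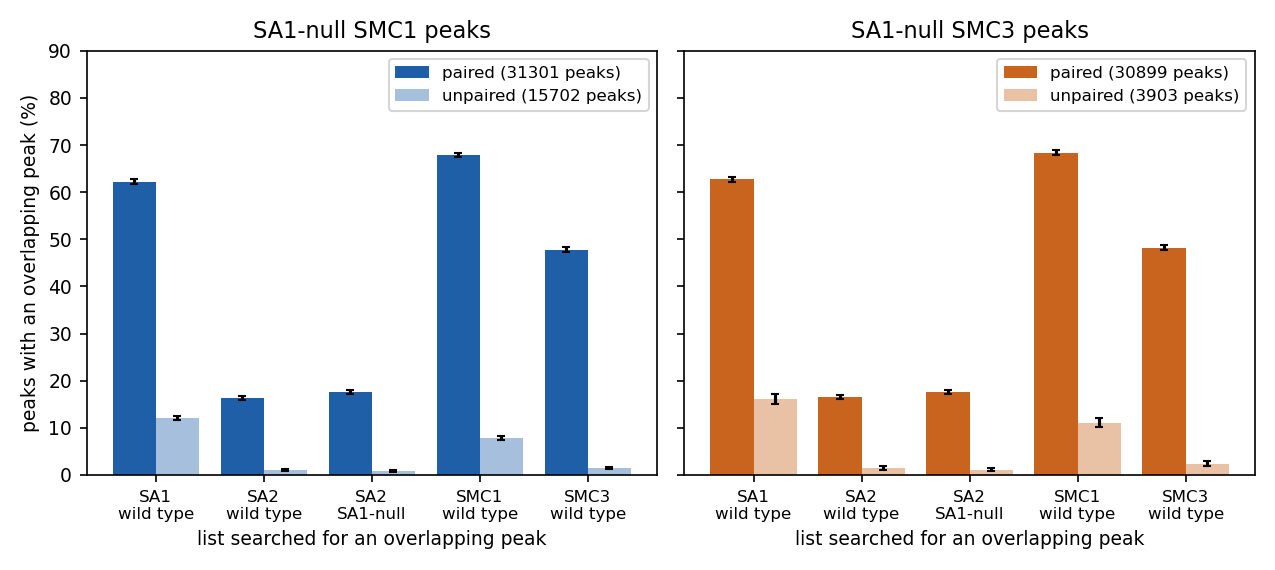
Share of paired (dark) and unpaired (light) SA1-null SMC1 peaks (left) and SMC3 peaks (right) that overlapped a peak of each of 5 other lists (percent, vertical axis, with 95% Wilson intervals). In every list the paired bar is the higher, for example 62.2 against 12.1% for wild-type SA1 at SMC1 peaks and 62.7 against 16.1% at SMC3 peaks.

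Positions with both subunits in wild-type cells nearly always had both in SA1-null cells. There were 14537 such wild-type positions, and 98.5% of them (interval 98.3 to 98.7%) had both subunits in SA1-null cells as well. A further 9433 wild-type positions had SMC1 alone. Of these, 6865 (72.8%, interval 71.9 to 73.7%) had both subunits in SA1-null cells, 1078 (11.4%) again had SMC1 alone, 398 (4.22%) had SMC3 alone and 1092 (11.6%) had neither. Of the 978 wild-type positions with SMC3 alone, 600 (61.3%) had both in SA1-null cells, 44 (4.50%) again had SMC3 alone and 222 (22.7%) had neither. Single-subunit positions of wild-type cells were thus mostly called for both subunits in SA1-null cells, where both lists were longer.

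The positions with a single subunit in SA1-null cells were mostly absent from the wild-type SMC lists. Of the 15702 positions with SMC1 alone, 14371 (91.5%, interval 91.1 to 91.9%) had neither subunit in wild-type cells, 1093 (6.96%) had SMC1 alone there and 112 had SMC3 alone. Of the 3903 with SMC3 alone, 3428 (87.8%, interval 86.8 to 88.8%) had neither, 382 (9.79%) had SMC1 alone and 43 (1.10%) had SMC3 alone in wild-type cells. An SMC3 peak without SMC1 in SA1-null cells was therefore more often met by the wild-type SMC1 list than by the wild-type SMC3 list, which held 24000 and 15564 peaks. Over all SA1-null SMC3 peaks the order was the same, at 61.9% and 43.1%. Positions with both subunits in SA1-null cells had both in wild-type cells in 46.6% of cases, SMC1 alone in 22.0%, SMC3 alone in 1.88% and neither in 29.5%. No peak of any other immunoprecipitation list lay at 12890 unpaired SMC1 peaks (82.1%) and at 2941 unpaired SMC3 peaks (75.4%). The same held for 42.2% of all SMC1 and 27.8% of all SMC3 peaks.

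Among peaks found in no other immunoprecipitation list, the subunits still met. Of 19848 such SMC1 peaks, 6958 had an SMC3 peak (35.1%, interval 34.4 to 35.7%), and of 9687 such SMC3 peaks, 6746 had an SMC1 peak (69.6%, interval 68.7 to 70.5%). Both shares were below those of the whole lists, 66.6% and 88.8%. At SMC peaks with a wild-type SA1 peak but no wild-type SMC peak the shares were 62.9% of 3881 for SMC1 and 83.4% of 2889 for SMC3. With a wild-type SMC peak but no SA1 peak they were 84.7% of 5704 and 93.5% of 5067. With both they were 97.4% of 17486 and 99.1% of 17110.

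The shares of paired peaks were alike across chromosomes. Over the 19 autosomes the share of paired SMC1 peaks was 66.5% ± 1.15 (SD over autosomes), from 63.3% on chromosome 13 to 68.3% on chromosome 11. For SMC3 it was 88.9% ± 0.782, from 87.8% on chromosome 6 to 90.6% on chromosome 9. On chromosome X 66.5% of 905 SMC1 peaks were paired (interval 63.4 to 69.5%) and 85.3% of 703 SMC3 peaks (interval 82.5 to 87.77%). The SMC3 share on X was below each autosome, and its interval ended just below the lowest, chromosome 6 at 87.79%. The interval of chromosome 6, 86.3 to 89.2%, overlapped that of X. Peaks on X were narrower, with medians of 463 bp for SMC1 (autosomes 522 to 559 bp) and 587 bp for SMC3 (639 to 677 bp). In wild-type cells X stood further from the autosomes, with 50.3% of 485 SMC1 peaks paired (interval 45.9 to 54.7%) against 60.9% ± 0.956. There were 1.35 SMC1 peaks for each SMC3 peak in SA1-null cells, from 1.32 to 1.42 over the autosomes and 1.29 on X. In wild-type cells X lay on the other side of the autosomes, at 1.75 against 1.50 to 1.59. The sex of the embryos is not stated.

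**Figure D4:**
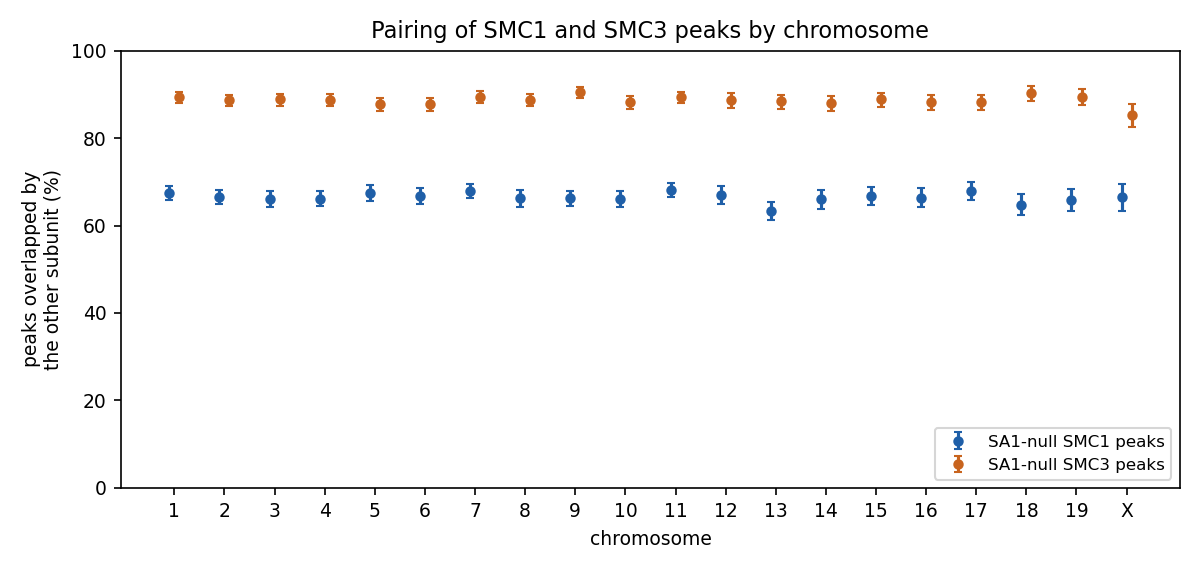
Share of SA1-null SMC1 and SMC3 peaks overlapped by a peak of the other subunit (percent, vertical axis) on each chromosome (horizontal axis), with 95% Wilson intervals. The autosomes lie between 63.3 and 68.3% for SMC1 and between 87.8 and 90.6% for SMC3, and the SMC3 share on X is 85.3%.

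As deposited, the SMC3 list was nested in the SMC1 list to a lesser degree in SA1-null than in wild-type cells. In wild-type cells 93.7% of SMC3 peaks had an SMC1 peak and 60.7% of SMC1 peaks had an SMC3 peak, against 88.8% and 66.6% in SA1-null cells. The ratio of list lengths differed as well, at 1.54 SMC1 peaks for each SMC3 peak in wild-type cells. With SMC1 lists reduced by width to the length of the SMC3 lists, the shares were 75.7% (SMC1) and 75.2% (SMC3) in SA1-null cells and 72.1% and 72.3% in wild-type cells. Lists of equal length in nearly one-to-one pairs give both subunits nearly the same share by construction. The cut also removed a larger part of the wild-type SMC1 list (24000 to 15564 peaks) than of the SA1-null one (47003 to 34802). The order of the genotypes at equal length therefore does not decide whether nesting differed. Base pairs covered by both subunits were 53.1% of the union in SA1-null and 50.1% in wild-type cells.

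A small number of broad domains carried both subunits. Peaks over 2000 bp numbered 61 for SMC1, of which 60 were paired, and 92 for SMC3, of which 91 were paired. A wild-type SMC peak was present at 54 of these SMC1 peaks and 86 of these SMC3 peaks, a wild-type SA1 peak at 41 and 67, and an SA2 peak of SA1-null cells at 4 and 10. A longer peak has more room to meet a peak of another list, and the part of this in the shares was not tested. For wild-type SMC the shares are 88.5% and 93.5%, against 49.3% of all SMC1 and 63.7% of all SMC3 peaks. For wild-type SA1 they are 67.2% and 72.8%, against 45.5% and 57.5%. For SA2 of SA1-null cells they are 6.56% and 10.9%, against 11.9% and 15.8%. A background interval overlapped 1 of these SMC3 peaks and 0 of these SMC1 peaks. Genes were not assigned, and positions are named by coordinates (mm9, 1-based).

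The 5 paired positions with the highest mean of both width percentiles were on chromosomes 11, 3, 14, 10 and 1. On chromosome 11 an SMC1 peak of 3901 bp (86393483 to 86397383) met an SMC3 peak of 5874 bp (86393630 to 86399503). On chromosome 3 the SMC1 peak measured 3196 bp (145310002 to 145313197) and lay wholly inside an SMC3 peak of 5482 bp (145307837 to 145313318). On chromosome 14 an SMC1 peak of 2893 bp (47005308 to 47008200) lay inside an SMC3 peak of 4488 bp (47004380 to 47008867). On chromosome 10 an SMC1 peak of 3464 bp (36858166 to 36861629) lay inside an SMC3 peak of 3859 bp (36857913 to 36861771). On chromosome 1 the order was the other, with an SMC1 peak of 5076 bp (164146519 to 164151594) and an SMC3 peak of 3856 bp (164148585 to 164152440). Each of the 5 overlapped a wild-type SMC1 peak. Wild-type SA1 had a peak at those on chromosomes 14, 10 and 1, and none of the 5 overlapped an SA2 peak of either genotype or an input interval.

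The widest unpaired SMC1 peak was on chromosome 1 from 90172707 to 90174793 (2087 bp), 8848 bp from the nearest SMC3 peak. The next were on chromosome 10 from 116432172 to 116433783 (1612 bp), chromosome 18 from 24279215 to 24280742 (1528 bp), chromosome 9 from 92144183 to 92145696 (1514 bp) and chromosome 8 from 81732305 to 81733811 (1507 bp). SA1 of wild-type cells had a peak at those on chromosomes 1, 10 and 8, that on chromosome 9 had wild-type SA2 and SMC1 peaks, and that on chromosome 18 overlapped none of the other lists. The widest unpaired SMC3 peak was on chromosome 2 from 117945895 to 117948819 (2925 bp), 3598 bp from the nearest SMC1 peak. It was followed by peaks on chromosome 2 from 75507483 to 75509466 (1984 bp), chromosome 7 from 96786099 to 96787760 (1662 bp), chromosome 13 from 108833295 to 108834871 (1577 bp) and chromosome 6 from 146838158 to 146839709 (1552 bp). None of these 5 had an SA1 or SA2 peak. The first had a wild-type SMC3 peak, and those on chromosomes 7 and 13 had a wild-type SMC1 peak.

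Some broad peaks of one subunit were split into several peaks of the other. The SMC3 peak that met most SMC1 peaks was on chromosome 19 from 5838001 to 5845632 (7632 bp) and overlapped 6. One on chromosome 1 from 90965346 to 90967703 (2358 bp) overlapped 4. The widest SMC3 peak of all, on chromosome 2 from 117935883 to 117944868 (8986 bp), overlapped 3 and also had peaks of SA1 and SA2 in wild-type and of SA2 in SA1-null cells. In the other direction 3 SMC1 peaks overlapped 3 SMC3 peaks each, on chromosome 17 from 79728445 to 79729975 (1531 bp), on chromosome 13 from 51940537 to 51941663 (1127 bp) and on chromosome 4 from 88583174 to 88584214 (1041 bp). The widest unpaired SMC3 peak, on chromosome 2, lay beside the widest SMC3 peak of all, with starts at 117945895 and 117935883.

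In windows of 1 Mb the numbers of SMC1 and SMC3 peaks went together. Over the 2318 windows with a peak of either subunit, the median was 18 SMC1 and 13 SMC3 peaks and the maximum 86 and 65. Pearson's r was 0.971 and Spearman's rho 0.974, given as a description, since both lists share the input and the mappable part of the genome. In the 1635 windows with at least 10 SMC1 peaks the ratio of SMC3 to SMC1 peaks was 0.737 in the median (10th to 90th percentile 0.587 to 0.909), and 18 windows held more SMC3 than SMC1 peaks. SMC1 alone had peaks in 71 windows and SMC3 alone in 16. The windows with most unpaired SMC1 peaks were on chromosome 9 from 63000001 to 64000000 (29 of 78), chromosome 8 from 129000001 to 130000000 (26 of 85) and chromosome 1 from 92000001 to 93000000 (25 of 64). Those with most unpaired SMC3 peaks were on chromosome 19 from 4000001 to 5000000 (13 of 51), chromosome 3 from 30000001 to 31000000 (10 of 34) and chromosome 4 from 134000001 to 135000000 (10 of 50). Windows were ranked by the count of unpaired peaks, which favours crowded windows. Over the whole lists 33.4% of SMC1 peaks and 11.2% of SMC3 peaks were unpaired. The windows picked for SMC1 lay near the SMC1 share, and those picked for SMC3 lay above the SMC3 share. Ranking by the unpaired count also favours windows with a high unpaired share, so no conclusion is drawn from this. The windows picked for SMC1 were rich in peaks of both subunits, with 52, 62 and 44 SMC3 peaks in the same order.

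**Figure D5:**
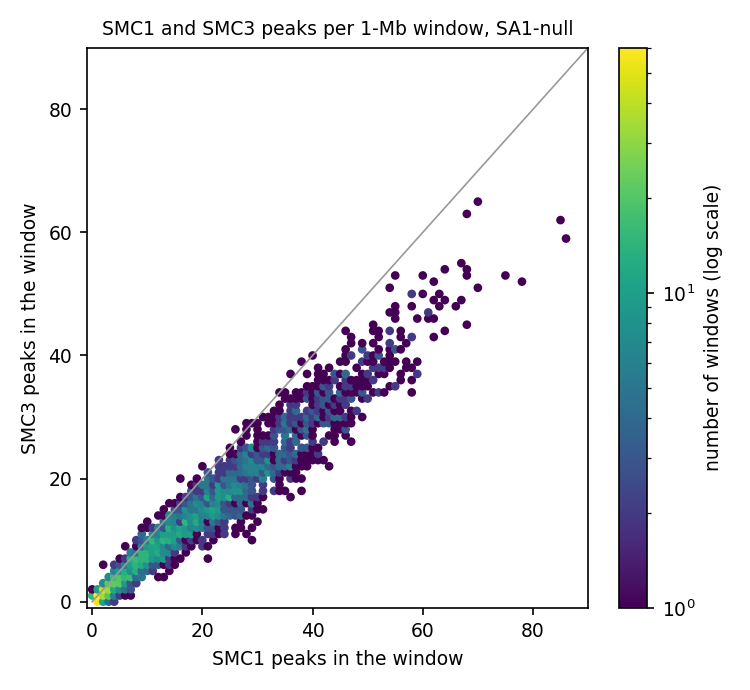
Number of SMC1 peaks (horizontal axis) against number of SMC3 peaks (vertical axis) of SA1-null cells in 1-Mb windows. Each point is a pair of counts, coloured by the number of windows that have it on a log scale, and the grey line marks equal numbers. Most points lie below the line, and 18 of the 1635 windows with at least 10 SMC1 peaks lie above it.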

How the data were processed

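ChIP-seq was done on MEFs grown with 20% serum, from fragments of 100 to 200 bp and 14 PCR cycles, on a Genome Analyzer IIx, as the labels' protocols state. The authors deposited 10 lists with 3 columns each, chromosome, start and end in base pairs, and no score. The submitters' processing notes name mm9 as the build and CASAVA 1.7 as a tool. Neither aligner nor peak caller is named in the labels or the files. Per the names of the deposited lists, SMC1 and SMC3 were called against the second input at a false discovery rate of 10 with no minimum fold, and both SMC1 replicates of SA1-null cells went into 1 list. Depth is unknown, and how the caller and the pooling set peak number and width was not tested.

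Starts were taken as 0-based, and 1-based coordinates are printed. Overlaps of at least 1 bp were counted in Python 3.11.15 with numpy 2.4.6, pandas 2.3.3 and scipy 1.17.1 (Wilson intervals). In simulated data, overlapping partners were planted at a part of the 47003 SA1-null SMC1 peaks, away from close neighbours. The functions recovered 100% of these partners, which checks the code only. For 100 ordered list pairs the counts of the functions equalled those of bedtools 2.31.1. Positions were named by a rule on width percentiles, width among unpaired peaks, number of partners and unpaired peaks in 1-Mb windows. Genes and sequences were not analysed here, since no annotation or genome of the same build was used. The members, comparisons, alternatives and rules were chosen with earlier results of these data known.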

Additional observations from a re-analysis of the deposited data

Results flagged for a closer look

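In 3 contrasts the direction in the SA1-null lists was opposite to that in the wild-type lists, or opposite between SMC1 and SMC3. With 1 list per antibody and genotype, none of these differences was tested. SMC3 peaks minus SMC1 peaks in one-to-one pairs measured 81 bp in the median in SA1-null cells and -49 bp in wild-type cells. The median width over whole lists, SA1-null minus wild type, was -44 bp for SMC1 and 89 bp for SMC3. At the 13870 positions with exactly 1 peak in each of the 4 SMC lists, the median of the differences by position was 1 bp for SMC1 and 139 bp for SMC3. The median widths there were 613 bp in SA1-null and 619 bp in wild-type cells for SMC1, and 710 and 570 bp for SMC3. The sign for SMC1 at these positions thus depended on the measure, and its size was small on both. The share of paired peaks, SA1-null minus wild type, was 5.90 percentage points for SMC1 and -4.93 percentage points for SMC3. At equal list lengths the shares were 75.7% and 72.1% for SMC1 and 75.2% and 72.3% for SMC3 in SA1-null and wild-type cells. As nearly all pairs were one-to-one, lists of equal length give both subunits nearly the same share. The contrasts for SMC1 and SMC3 then share their sign by construction, so these values do not bear on the opposite directions.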

How the results depend on the processing

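Of 75 values recomputed under 7 alternatives, 35 stayed within the interval of the value reported, and 2 shares of common base pairs, which have no interval, equalled it to 3 significant digits. All values for autosomes only and for removal of background intervals were among these 37. When overlaps had to reach 50% of the shorter peak, 65.9% of SA1-null SMC1 and 88.3% of SMC3 peaks were paired. With at least 50% of both peaks the shares were 62.9% and 85.0%, and in wild-type cells 59.6% and 91.9%. Wild-type SA1 was then at 60.7% of paired SMC1, 59.9% of paired SMC3 and 17.6% of unpaired SMC3 peaks. After merging of peaks closer than 1000 bp, 67.8% of SMC1, 89.3% of SMC3 and 61.8% of wild-type SMC1 peaks were paired, 53.4% of base pairs were common, SMC3 was the wider in 69.6% of pairs, centres were 49 bp apart, and wild-type SA1 was at 64.1% of paired SMC1 and 64.1% of paired SMC3 peaks. In the widest 50% of each list, 57.4% of SMC1 and 76.7% of SMC3 peaks were paired (wild type 48.6% and 74.9%), 43.7% of base pairs were common, SMC3 was the wider in 76.6%, and centres were 44.5 bp apart. Wild-type SA1 was there at 47.0% of paired and 18.8% of unpaired SMC1 peaks, and at 47.3% and 33.0% of SMC3 peaks. This setting takes SMC1 and SMC3 peaks by separate widths, so partners are lost by construction. With SMC1 cut to the length of SMC3 by width, 75.7% of SMC1 and 75.2% of SMC3 peaks were paired (wild type 72.1% and 72.3%), 52.1% of base pairs were common and SMC3 was the wider in 68.5%. Wild-type SA1 was at 63.6% of paired and 10.2% of unpaired SMC1 peaks, and at 63.9% and 37.9% of SMC3 peaks. Here too SMC3 peaks lost narrow SMC1 partners by construction and were counted as unpaired.

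No stricter threshold by score was possible on lists of bare positions. Leaving out a replicate could not be run either, because the 2 SA1-null SMC1 replicates share 1 list. No paired analysis was possible because the groups compared share fewer than 2 replicate numbers. Unknown depth limits every statement on peaks of one subunit alone.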

Other observations

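Unpaired peaks were seldom near misses. The nearest SMC3 peak lay 12068 bp from an unpaired SMC1 peak in the median, and less than 1000 bp away for 1534 of 15702 (9.77%). The nearest SMC1 peak lay 7669 bp from an unpaired SMC3 peak in the median, and less than 1000 bp away for 578 of 3903 (14.8%). More than 50000 bp separated 2172 unpaired SMC1 peaks (13.8%) and 355 unpaired SMC3 peaks (9.10%) from the other subunit. Within each list, neighbouring SMC1 peaks were 18545 bp apart in the median and neighbouring SMC3 peaks 26058 bp.

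Pairing differed little between crowded and sparse regions, while the share of SMC peaks at wild-type SA1 positions was lower in crowded ones. Windows were sorted by the same SA1-null list whose peaks were counted. Peaks without a wild-type SA1 peak therefore help to place a window among the crowded ones, and the part of this in the lower share was not tested. In windows of 1 Mb with 1 to 5 SMC1 peaks, 63.2% of 1157 SMC1 peaks were paired, and in windows with 51 or more, 68.7% of 5447 were. Over the same windows the share with a wild-type SA1 peak was 65.6% in the sparsest and 39.5% in the most crowded. For SMC3 the share of paired peaks was 87.0% in windows with 1 to 5 SMC3 peaks and 87.1% in those with 51 or more, and the share with a wild-type SA1 peak was 74.2% and 45.7%. Peaks were also narrower in the sparsest windows, with medians of 447 bp for SMC1 and 586 bp for SMC3, against 554 and 660.5 bp in the most crowded.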
